A study of Capra hircus with 9 samples.

Results

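The histone protein genes of the goat were described in submandibular glands of 3 ages. A gene was taken as a member when the product description of one of its transcripts named histone H1, H2A, H2B, H3 or H4, a variant or a like protein, and when the description did not name an enzyme or other factor that acts on histones. Of the 21232 genes in the table, 115 were members. By their product names 33 were variant histones (5 H1, 12 H2A, 1 H2B and 15 H3). The other 82 were taken as replication-dependent histones (9 H1, 17 H2A, 36 H2B, 12 H3 and 8 H4). This class was the default for names not listed as variants, so it also holds products named H1t or late histone H2B.L4-like. The 9 libraries came from healthy female Lubo goats, 3 at 1 month, 3 at 12 months and 3 at 24 months of age, and the ages are the only difference between the groups that the labels give. Total RNA of the gland was depleted of ribosomal RNA and not selected for poly(A) tails, so transcripts without a tail could enter the libraries. Most members carry provisional symbols (109 of 115 start with LOC), and their products are named here as in the deposited table.

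Replication-dependent histones are the bulk supply of chromatin protein in dividing cells. Their genes lie in clusters, have no introns in the typical case, and are transcribed in S phase into messages that end in a stem-loop in place of a poly(A) tail. Variant histones are encoded by single genes outside the clusters. Many of them are made throughout the cell cycle and in cells that no longer divide, but this does not hold for every variant. They take the place of the bulk histone at particular sites, as H3.3 does at active genes, H2A.Z at promoters and CENPA at centromeres. In the goat reference annotation (ARS1.2, used for names and gene order only), 77 of the 82 replication-dependent genes had another member among the 2 nearest annotated genes on either side, against 1 of the 33 variant genes. The 77 include 11 H2B genes on chromosome X of the reference.

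Library totals were from 1.15e+07 to 2.49e+07 expected counts, and all 1-month libraries were shallower than all others. At these totals 3 counts correspond to between 0.120 and 0.260 CPM (counts scaled to a common library size). The library labelled 1-month replicate 2 went against its tissue label. Its 10 genes of salivary acini and ducts summed to 312 CPM, against 38805 and 25351 CPM in the other 1-month libraries and at least 112575 CPM in the older ones, and 4 of the 10 were under 1 CPM. MUC19, a salivary mucin, stood at 51.8 CPM there and at 23843 and 17468 CPM in its group, and ZG16B, a secreted salivary lectin, at 9.25 CPM against 13365 and 6807 CPM. Its 10 thymocyte genes summed to 14106 CPM, against 3520 and 1774 CPM in the other 1-month libraries and 9.27 to 29.1 CPM in the older ones. All 9 libraries were kept, and the main counts below are also given without the library labelled 1-month replicate 2. Those counts are not free of thymic genes. The thymic epithelium list below summed to 179 and 71.0 CPM in 1-month replicates 1 and 3, against at most 2.63 CPM in the older libraries.

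The replication-dependent genes summed to 7734, 50464 and 6908 CPM in the 1-month libraries (replicates 1 to 3). At 12 months they summed to 528, 855 and 526 CPM, and at 24 months to 568, 1280 and 2023 CPM. The 1-month libraries did not overlap with any older library, and the library labelled 1-month replicate 2 was 6.89 times as high as the mean of the other 1-month libraries. The group means were 21702 ± 24912, 636 ± 189 and 1290 ± 727 CPM (SD, n = 3), so that they were 34.1-fold higher at 1 month than at 12 months and 16.8-fold higher than at 24 months, and 11.5-fold and 5.67-fold higher without that library. The variant genes summed to 1322, 3583 and 929 CPM at 1 month, 602, 616 and 598 CPM at 12 months and 562, 582 and 449 CPM at 24 months. The group means were 1945 ± 1432, 605 ± 9.33 and 531 ± 71.5 CPM (SD, n = 3). Here too the 1-month libraries lay above all older ones, by 3.21-fold and 3.66-fold in the means and by 1.86-fold and 2.12-fold without the library labelled 1-month replicate 2. Of the 1-month variant sums, H1.0 (LOC102178051) gave 456, 1785 and 191 CPM and H2A.x (LOC108637680) 128, 748 and 115 CPM. The H3.3 genes were 1.14-fold and 1.36-fold higher at 1 month, and 1.07-fold and 1.28-fold without that library. All members together took 1.18%, 5.78% and 1.04% of the counts at 1 month and from 0.0896% to 0.213% in the older libraries. The replication-dependent part of all histone counts was 85.4% to 93.4% at 1 month, 46.7% to 58.1% at 12 months and 50.3% to 81.8% at 24 months.

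**Figure D1:**
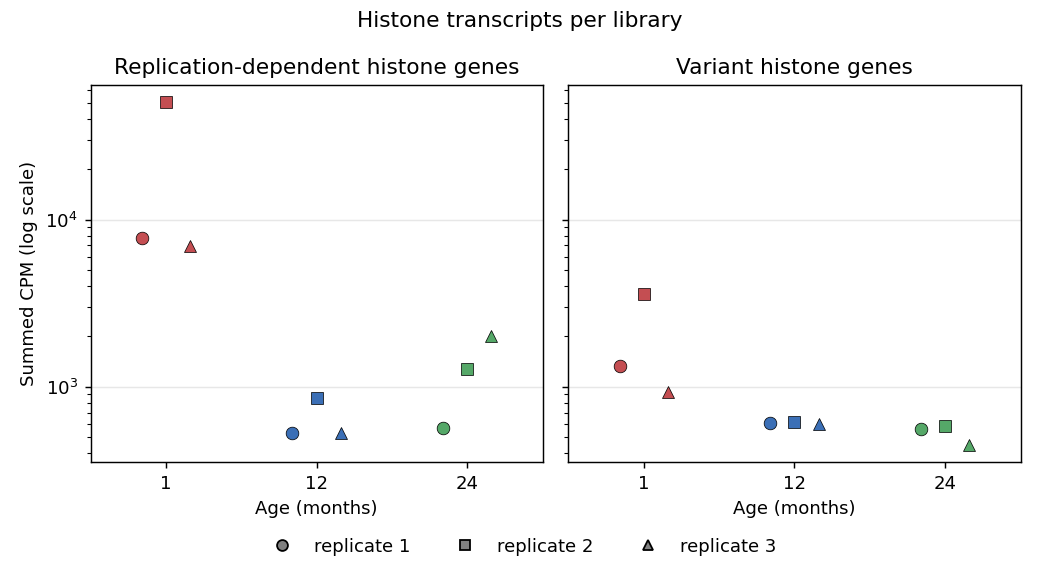
Summed CPM (log scale) of the 82 replication-dependent and the 33 variant histone genes in each of the 9 libraries, by age in months, with 1 symbol for each replicate. The 1-month libraries lie above all older ones in both panels (6908 CPM or more against 2023 CPM or less for the replication-dependent genes), and replicate 2 lies highest at 1 month.

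Cell division genes and markers of lymphoid, thymic and neutrophil cells were also higher at 1 month, while the other marker lists took other courses. The 20 S phase genes, among them genes of the replicative helicase, nucleotide synthesis enzymes and cyclins, summed to 1485, 4663 and 1334 CPM at 1 month and to 254 to 298 CPM in the older libraries. MKI67, a marker of dividing cells on this list, gave 414, 1902 and 417 CPM of the 1-month sums and 4.93 to 18.2 CPM of the older ones. Of the 20 genes 17 fell from 1 to 12 months and 16 from 1 to 24 months (18 and 17 without the library labelled 1-month replicate 2), beside 11.7% and 10.4% of all genes (22.2% and 14.2% without it). All 10 thymocyte genes fell in both comparisons, with medians of -8.75 and -8.37 on the log2 scale (-8.75 and -8.10 with genes at the 3-count floor set to their bound). RAG1, a recombinase of developing lymphocytes, stood at 1562, 4310 and 670 CPM at 1 month and at 0.0425 to 0.842 CPM afterwards. The thymic epithelium list (5 genes, led by CCL25 and PRSS16) summed to 179, 717 and 71.0 CPM at 1 month and to 0.941 to 2.63 CPM later. All 4 of its genes that were tested fell in both comparisons, but in each comparison 3 of them were at or under 3 counts in every older library. The same floor held for 2 of the 10 thymocyte genes at 12 months and 1 at 24 months. Genes that passed the filter on low counts through their 1-month level alone had to fall, so their calls are a description and no test. The 6 B cell genes, among them CD79A and PAX5, summed to 46.8, 293 and 103 CPM at 1 month and to 5.83 to 21.9 CPM later, and 3 of 6 fell in each comparison (5 and 4 without the library labelled 1-month replicate 2). The 5 neutrophil genes, among them MPO and S100A9, summed to 8.86, 44.6 and 665 CPM at 1 month and to 0.481 to 3.63 CPM later, and 3 and 4 fell (5 and 5 without the library labelled 1-month replicate 2). Skeletal muscle genes (ACTA1, CKM and 3 others) were highest in 12-month replicate 2 (47.6 CPM) and 1-month replicate 1 (27.9 CPM), and 0 and 1 fell. Of the 10 salivary genes 2 rose at 12 months and 3 at 24 months, and 9 in each without the library labelled 1-month replicate 2, where 6.52% and 7.1% of all genes rose, and 21.4% and 14.1% without it. Erythroid genes (ALAS2 and AHSP) reached at most 1.15 CPM in any library. The part of these cells in the histone results was not tested, and in bulk tissue fewer cells of a type and less RNA per cell cannot be told apart.

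**Figure D2:**
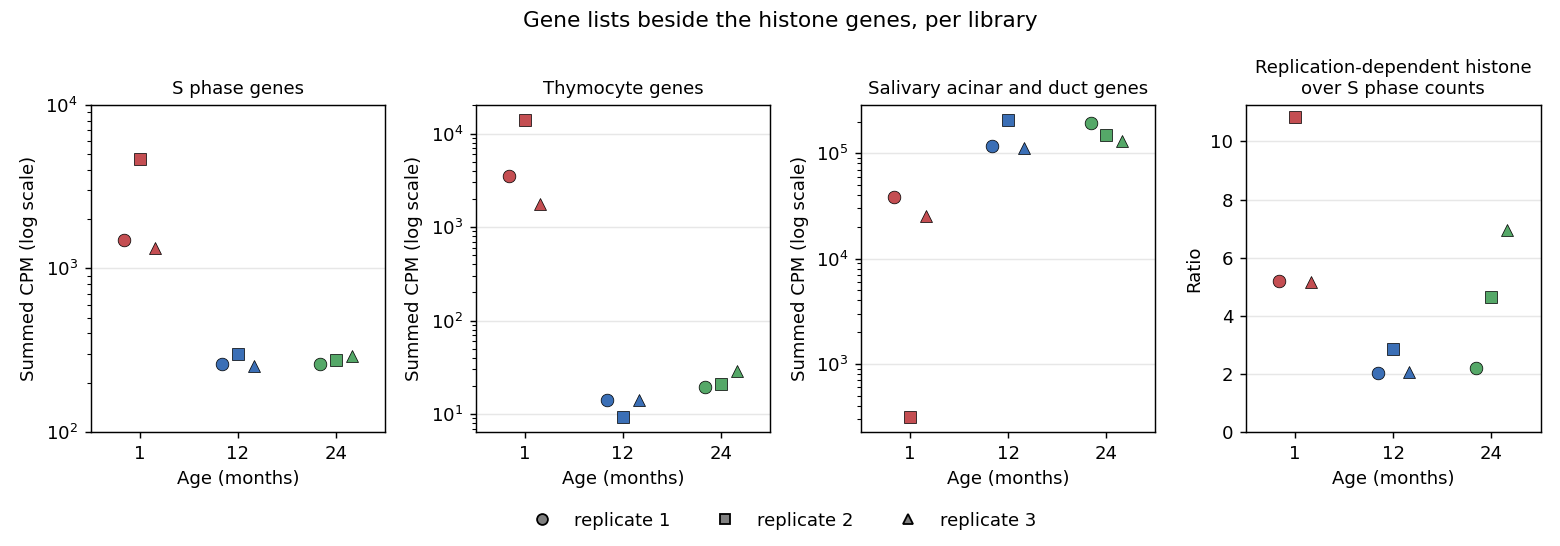
Summed CPM (log scale) of the S phase, thymocyte and salivary gene lists, and the ratio of summed replication-dependent histone CPM to summed S phase CPM (linear axis), per library by age. Replicate 2 of the 1-month group is lowest for the salivary genes (312 CPM) and highest for the thymocyte genes (14106 CPM), and the ratio at 24 months runs from 2.2 to 6.95.

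The comparison of 12 with 1 month asks how the gland changes from the kid to the adolescent goat. Replication-dependent histone genes fell nearly as a whole class. Of the 82 genes 65 exceeded 3 counts in some library and 60 passed the filter on low counts. A gene that passed through its 1-month level alone had to differ, so the counts describe the genes tested and not all members. Among the 60, 53 fell (adjusted p under 0.05), none rose, and the median log2 fold change was -5.93 (-5.83 with 1 gene that was at the floor at 12 months set to its bound). Over all 14625 genes tested, 11.7% fell and the median was -0.02. Without the library labelled 1-month replicate 2, 57 of 60 fell with a median of -4.36, against 22.2% of all genes. In 59 of the 60 the lowest 1-month library lay above the highest 12-month library, as in 26.5% of all genes. The count depended on the 12-month libraries. Leaving out 12-month replicate 1, 2 or 3 left 0 of these genes called by the edgeR quasi-likelihood test. It left 0, 67 and 110 genes in the whole table (0.0%, 0.445% and 0.729% of those tested). In these fits 56, 59 and 56 of the replication-dependent genes had an unadjusted p under 0.05, and the median stayed between -6.00 and -5.66. Without 1-month replicate 1 or 3, 54 of the 61 replication-dependent genes then tested were called. In the whole table these fits called 2063 of 14898 and 1688 of 14865 genes.

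The comparison of 24 with 1 month spans the whole age range and shares its 1-month libraries with the first. Of the 60 replication-dependent genes tested 47 fell, none rose, and the median was -4.87 (-4.77 with the 1 gene at the floor set to its bound). Over all 14699 genes 10.4% fell and the median was -0.01. Without the library labelled 1-month replicate 2 the count was 45, with a median of -3.34, against 14.2% of all genes. The 1-month and 24-month libraries did not overlap for 53 of the 60, all lower at 24 months, as for 23.2% of all genes. Leaving out 24-month replicate 1, 2 or 3 left 11, 2 and 3 calls, and 1557, 546 and 309 in the whole table (10.3%, 3.63% and 2.05% of the genes tested). In these fits 48, 51 and 51 of the replication-dependent genes had an unadjusted p under 0.05, and their medians were -4.47, -4.80 and -5.20.

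**Figure D3:**
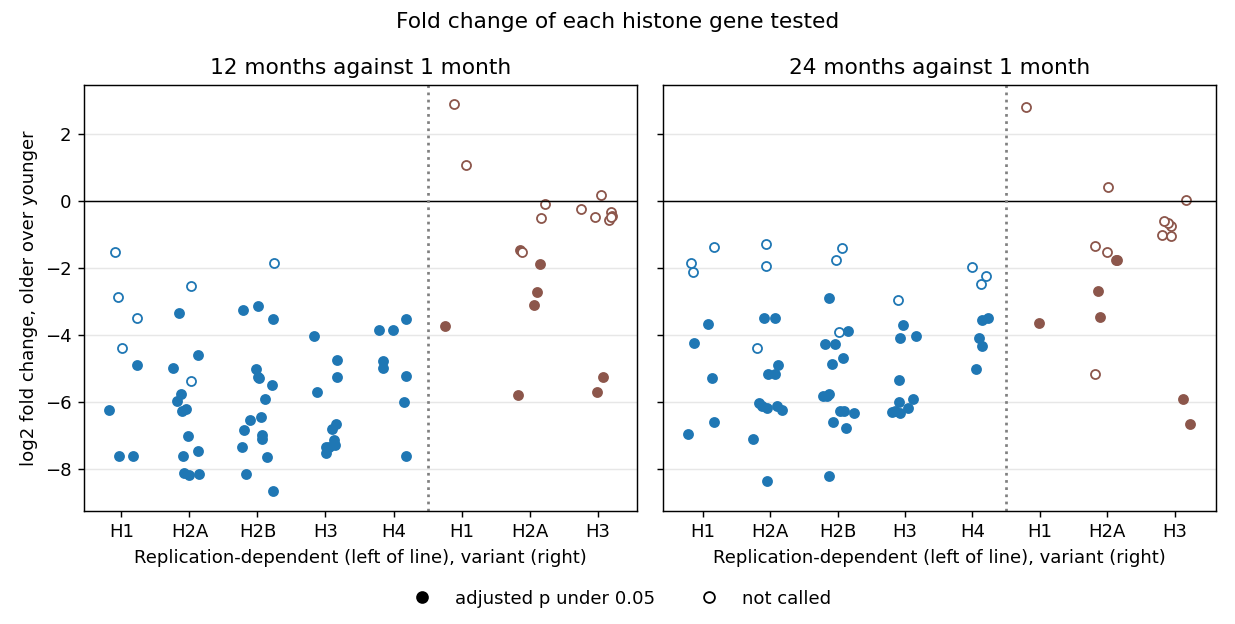
Log2 fold change of each histone gene tested, by histone type, for 12 against 1 month and 24 against 1 month (points are genes, spread sideways for legibility, with filled points for an adjusted p under 0.05). Replication-dependent genes (left of the dotted line) lie below 0 throughout, with medians of -5.93 and -4.87, and variant genes (right) reach from -6.66 to 2.90.

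By histone type the median fold change was the most negative for H3. All 11 H3 genes tested fell from 1 to 12 months, with a median of -6.80, and 10 of 11 fell from 1 to 24 months, with a median of -5.91. The counts were 11 and 10 and the medians -5.14 and -3.93 without the library labelled 1-month replicate 2. The 11 genes are named H3.1-like, except LOC102173247 (H3.v1-like) and LOC102180554 (H3c), and H3.1 is laid down behind the replication fork. LOC108633412 (H3.1-like), the most abundant of them, stood at 347, 2295 and 340 CPM at 1 month, 5.47, 9.84 and 4.08 CPM at 12 months and 2.35, 8.13 and 28.8 CPM at 24 months. It fell in both comparisons, with log2 fold changes of -7.27 ± 1.11 (SE) at 12 months (adjusted p = 0.0111) and -6.17 ± 1.29 at 24 months (adjusted p = 0.0174). LOC102181641 (H3.1-like) fell in both comparisons, with log2 fold changes of -7.51 ± 1.18 and -6.29 ± 1.25. LOC102178901 (H3.1-like) kept more of its level, at 228, 1312 and 198 CPM in the kids and 17.1 to 66.7 CPM in the older goats, and fell in both comparisons, with log2 fold changes of -4.74 ± 0.92 and -3.69 ± 0.93.

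For H2A and H2B, which pair as dimers on the outside of the nucleosome core, 13 of 15 and 17 of 18 genes tested fell at 12 months, with medians of -6.19 and -6.18. At 24 months 12 of 15 and 15 of 18 fell, with medians of -5.15 and -5.30. In the fits without the library labelled 1-month replicate 2, 15 H2A and 17 H2B genes fell at 12 months (medians of -4.65 and -4.54) and 12 and 14 at 24 months (medians of -3.67 and -3.62). The member with the highest mean over the 9 libraries was LOC102180587 (H2B type 1-like), at 653, 3999 and 647 CPM at 1 month, 3.32, 26.0 and 17.3 CPM at 12 months and 6.97, 22.2 and 60.5 CPM at 24 months. It fell in both comparisons, with log2 fold changes of -6.83 ± 1.27 at 12 months (adjusted p = 0.0168) and -5.81 ± 1.19 at 24 months (adjusted p = 0.0162). LOC102178318 (H2B type 1-K) fell in both comparisons, with log2 fold changes of -6.52 ± 1.16 and -5.80 ± 1.23, and LOC102183280 (H2B type 1-like) with log2 fold changes of -7.33 ± 0.98 and -6.58 ± 1.12. Among the H2A genes LOC102182458 (H2A type 1-like) led, with 316, 2003 and 280 CPM at 1 month against 9.02 to 43.9 CPM later, and fell in both comparisons, with log2 fold changes of -6.19 ± 1.00 and -5.14 ± 1.08. LOC102180034 fell in both comparisons, with log2 fold changes of -7.62 ± 1.20 and -6.12 ± 1.22. LOC108633413 fell in both comparisons, with log2 fold changes of -8.16 ± 1.80 and -6.22 ± 1.41. Many H2B genes were at or near 0 throughout: 16 of the 36 never exceeded 3 counts in a library, and of the other replication-dependent types 1 H2A gene did not. The 16 include all 11 H2B genes on chromosome X of the reference.

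The H4 genes encode the partner of H3. All 8 fell at 12 months, with a median of -4.86 (-4.30 with 1 gene at its bound), and 5 of 8 at 24 months, with a median of -3.50 (-3.31 likewise). The counts were 8 and 4 and the medians -3.32 and -1.93 without the library labelled 1-month replicate 2. LOC106503502, the most abundant, stood at 228, 1337 and 201 CPM at 1 month, 47.1, 59.4 and 47.6 CPM at 12 months and 51.7, 128 and 182 CPM at 24 months. It fell by 3.52 ± 0.85 at 12 months (adjusted p = 0.0342), and at 24 months its log2 fold change was -2.21 ± 0.87 (adjusted p = 0.113). LOC102186446 stood at 27.6 to 141 CPM in the older libraries, with log2 fold changes of -3.84 ± 0.90 (adjusted p = 0.0315) and -2.46 ± 0.90 (adjusted p = 0.0936). LOC102183743 fell in both, with log2 fold changes of -4.96 ± 0.98 and -3.53 ± 0.99.

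The linker histone H1 binds the DNA between nucleosomes. Of 8 H1 genes tested 4 fell at 12 months and 5 at 24 months, with medians of -4.63 and -3.94. The H1 counts were 6 and 5 and the medians -2.49 and -1.77 without the library labelled 1-month replicate 2. LOC106501755 (H1.5) stood at 266, 1849 and 223 CPM at 1 month, 3.59, 6.26 and 2.36 CPM at 12 months and 1.92, 4.74 and 16.7 CPM at 24 months, and fell in both comparisons, with log2 fold changes of -7.59 ± 1.19 and -6.58 ± 1.29. LOC102180549 (H1.3) fell in both comparisons, with log2 fold changes of -4.88 ± 1.21 and -4.23 ± 1.11. LOC102184297 (H1.4) was not called in either. It stood at 129, 1040 and 117 CPM in the kids, 26.9, 57.3 and 31.9 CPM at 12 months and 33.4, 105 and 147 CPM at 24 months, so that the 1- and 24-month groups overlapped. Its log2 fold changes were -3.48 ± 1.00 (adjusted p = 0.0539) and -2.10 ± 0.97 (adjusted p = 0.166). Without the library labelled 1-month replicate 2 it passed at 12 months, with -1.67 (adjusted p = 0.00875).

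The mix of histone types among the replication-dependent counts differed between the 1-month and the older libraries. H3 genes took 20.9%, 21.4% and 21.6% of these counts in the 1-month libraries, 10.2% to 12.0% at 12 months and 8.10% to 12.8% at 24 months. H4 genes took 8.36%, 8.17% and 8.53% at 1 month and 15.2% to 20.4% later. For both types the 1-month libraries did not overlap with the older ones, and the library labelled 1-month replicate 2 lay within 1 percentage point of the others of its group. H2A took 26.3% to 27.6% at 1 month and 21.2% to 26.3% later, and H2B 32.4% to 34.1% against 27.3% to 39.2%. These are shares of counts, which also follow the length of each message, and no test was run on them.

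**Figure D4:**
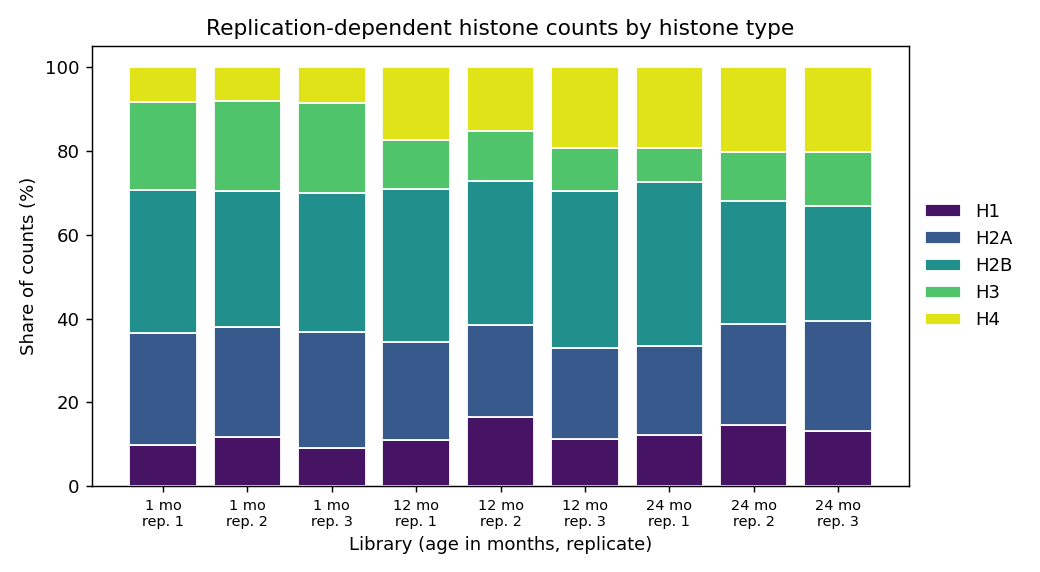
Share of the replication-dependent histone counts (%) taken by each histone type in each of the 9 libraries, as stacked bars from 0 to 100%. The H3 segment is about 21% in each 1-month library and at most 12.8% in the older ones, while the H4 segment is at most 8.53% at 1 month and at least 15.2% later.

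Of the 60 replication-dependent genes tested, 45 fell in both comparisons with 1 month, 8 at 12 months only, 2 at 24 months only and 5 in neither. The 15 genes that missed in at least 1 comparison were chosen by these calls, and their values are given as a description. They took 16.1% to 17.5% of the replication-dependent counts at 1 month and 53.3% to 62.8% in the older libraries. Besides LOC102184297 (H1.4) and the H4 genes LOC106503502 and LOC102186446 they include LOC102171395 (H2B type 2-E), which stood at 68.6, 485 and 89.9 CPM at 1 month, 44.6, 82.7 and 54.5 CPM at 12 months and 72.0, 81.7 and 80.9 CPM at 24 months. Its adjusted p-values were 0.145 and 0.226. Its neighbour in the reference annotation is LOC102171676 (H2A type 2-C), at 64.1, 444 and 65.8 CPM in the kids and 27.2 to 115 CPM later. A second adjacent pair, LOC102185323 (H2B type 1-like) and LOC102185049 (H2A type 1-like), ran from 34.1 to 169 CPM and from 29.9 to 156 CPM in the older libraries and sits next to the H1.4 gene. LOC106503502 and LOC102186446, the leading H4 genes, are also neighbours of each other. Without the library labelled 1-month replicate 2, the log2 fold changes from 1 to 24 months were 0.09 for LOC102171395, 0.32 for LOC102171676, -0.21 for LOC102185323 and -0.27 for LOC102184297, none of them called (adjusted p = 0.644 or more). Genes in these clusters share long stretches of near-identical sequence, and the authors' counting divided shared reads between copies, so the split between single genes is less certain than the sums.

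Variant histone genes were a mixed class. Of the 33 genes 22 exceeded 3 counts in some library, 20 were tested at 12 months and 18 at 24 months. From 1 to 12 months 8 of 20 fell and none rose, with a median of -0.53. From 1 to 24 months 7 of 18 fell and none rose, with a median of -1.42. These shares stand beside the 11.7% and 10.4% of all genes that fell. Without the library labelled 1-month replicate 2, 10 fell and 1 rose at 12 months (22.2% and 21.4% of all genes), and 8 fell at 24 months (14.2% of all genes). Leaving out single older libraries left 0 or 1 call at 12 months (8 or 9 at an unadjusted p under 0.05) and from 1 to 3 at 24 months (9 to 11 at an unadjusted p under 0.05), where at most 0.729% and 10.3% of all genes were called.

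The variants that fell were of several kinds. LOC102178051 encodes H1.0, a linker histone otherwise known from resting and differentiated cells. It stood at 456, 1785 and 191 CPM at 1 month, 47.4, 67.1 and 68.9 CPM at 12 months and 59.8, 87.4 and 39.2 CPM at 24 months, with no overlap between kids and older goats. It fell in both comparisons, with log2 fold changes of -3.73 ± 0.88 (adjusted p = 0.032) and -3.64 ± 0.88 (adjusted p = 0.0271), and with -2.41 and -2.28 without the library labelled 1-month replicate 2. LOC108637680 encodes H2A.x, the H2A form phosphorylated at DNA breaks. It stood at 128, 748 and 115 CPM at 1 month, 9.79, 5.65 and 2.62 CPM at 12 months and 0, 8.08 and 18.1 CPM at 24 months. It fell by 5.79 ± 1.05 at 12 months (adjusted p = 0.0158), and at 24 months its log2 fold change was -5.15 ± 1.64 (adjusted p = 0.0628).

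CENPA, the H3 form that marks centromeres, stood at 34.5, 72.3 and 25.3 CPM at 1 month, 1.11, 0.82 and 0.61 CPM at 12 months and 0.37, 0.35 and 0.47 CPM at 24 months. It fell in both comparisons, with log2 fold changes of -5.70 ± 0.59 (adjusted p = 0.00619) and -6.66 ± 0.64 (adjusted p = 0.00225). A related gene, LOC108633924, whose product is also named as a centromeric H3-like protein, fell in both comparisons, with log2 fold changes of -5.24 ± 0.94 and -5.90 ± 1.07. LOC102183306 (H2A.Z) stood at 71.6, 81.4 and 53.6 CPM at 1 month, 24.4, 24.1 and 25.1 CPM at 12 months and 20.8, 22.0 and 14.3 CPM at 24 months, and fell in both comparisons, with log2 fold changes of -1.45 ± 0.27 and -1.76 ± 0.38. Its close relative H2A.V was listed under LOC106502044, which fell in both comparisons, with log2 fold changes of -1.86 ± 0.38 and -1.75 ± 0.44, and under H2AFV, which fell in both comparisons, with log2 fold changes of -2.71 ± 0.59 and -2.67 ± 0.72. LOC102191766 (macro-H2A.2, which carries a large extra domain) fell in both comparisons, with log2 fold changes of -3.08 ± 0.71 and -3.45 ± 0.74 from 3.54 to 10.5 CPM at 1 month. The entries named macro-H2A.1, which may belong to the same gene, did not pass the test with all libraries. LOC102178535 had log2 fold changes of -1.52 ± 0.54 (adjusted p = 0.089, and 0.0203 with -0.77 without the library labelled 1-month replicate 2) and -1.50 ± 0.57 (adjusted p = 0.101), and H2AFY of -0.50 ± 0.39 (adjusted p = 0.366) and -1.33 ± 0.66 (adjusted p = 0.194).

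None of the H3.3 genes was called in either comparison with all libraries. LOC108636012 (H3.3-like) passed at 12 months when the library labelled 1-month replicate 2 was left out, with a log2 fold change of -0.59 (adjusted p = 0.0421). LOC102190909 stood at 205, 211 and 203 CPM at 1 month, 224, 240 and 218 CPM at 12 months and 223, 203 and 175 CPM at 24 months. Its log2 fold changes were 0.18 ± 0.24 (adjusted p = 0.603) and 0.06 ± 0.36 (adjusted p = 0.925), and with library totals in place of the normalization factors they were -0.28 and -0.62. LOC102189503 stood at 176, 183 and 130 CPM at 1 month and 80.8 to 120 CPM later, with log2 fold changes of -0.47 ± 0.27 (adjusted p = 0.234) and -0.65 ± 0.37 (adjusted p = 0.252). In both genes the library labelled 1-month replicate 2 was close to the other 1-month libraries. LOC102190909 was the highest of all members in 5 of the 6 older libraries. The other H3.3-like genes named by the rule, LOC108634231, LOC108636012, LOC108633916 and LOC102182848, ran between 0.84 and 78.2 CPM and had adjusted p-values of 0.1 or more with all libraries. TGAS113E22.1, a new transcript named H3.3, reached at most 5.64 CPM and was at 0 in 6 libraries. The H3.3 genes summed to 425 to 549 CPM at 1 month, 414 to 444 CPM at 12 months and 299 to 424 CPM at 24 months. As a share of the counts of H3.3 and replication-dependent H3 genes together they made up 23.5%, 4.84% and 22.2% at 1 month, 87.5%, 81.3% and 88.5% at 12 months and 90.2%, 70.7% and 53.6% at 24 months.

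LOC108636046 (H2A.J) stood at 13.5, 41.9 and 11.6 CPM at 1 month, 21.5, 21.2 and 21.1 CPM at 12 months and 16.6, 40.9 and 28.1 CPM at 24 months. Its log2 fold changes were -0.06 ± 0.54 (adjusted p = 0.941) and 0.44 ± 0.62 (adjusted p = 0.648), but without the library labelled 1-month replicate 2 it rose by 0.75 from 1 to 12 months (adjusted p = 0.0111), and at 24 months its log2 fold change was then 1.29 (adjusted p = 0.055). LOC102175925 (testis-specific H1) stood at 0, 0 and 0.63 CPM at 1 month and 0.37 to 2.81 CPM later, with log2 fold changes of 2.90 ± 1.26 (adjusted p = 0.14) and 2.81 ± 1.42 (adjusted p = 0.199). Variants as a whole took 8.04% to 13.8% of the H2A counts at 1 month and 17.1% to 49.4% later.

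**Figure D5:**
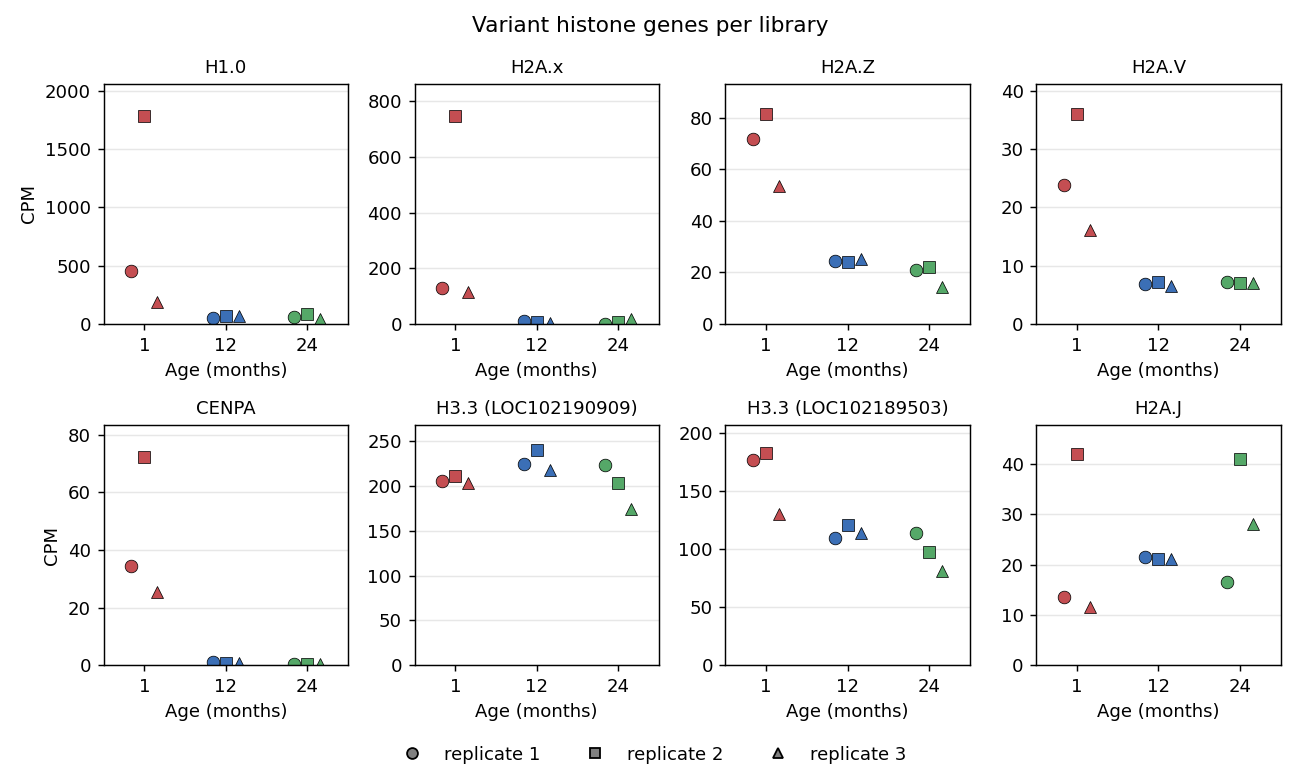
CPM (linear axes from 0) of 8 variant histone genes in each library by age in months. H1.0, H2A.x, H2A.Z, H2A.V and CENPA are higher in all 3 1-month libraries than in any older one, while LOC102190909 (H3.3) stays between 175 and 240 CPM and H2A.J overlaps between the ages.

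Factors that make and load histones were followed with a list of 35 genes, all of which were tested. In each comparison with 1 month 7 of the 35 fell and none rose, and they were the same 7 genes. Beside the 11.7% and 10.4% of all genes that fell, this is 1 of 13 genes for transcription and 3′ end processing and 6 of 22 for chaperones and assembly. SLBP, which binds the stem-loop of replication-dependent messages, stood at 32.5, 89.1 and 28.3 CPM at 1 month and 9.83 to 15.6 CPM later and fell in both comparisons, with log2 fold changes of -1.89 ± 0.52 (adjusted p = 0.0481) and -2.03 ± 0.54 (adjusted p = 0.0354). ASF1B, a chaperone of new H3 and H4, stood at 21.2, 149 and 21.4 CPM at 1 month and 0.51 to 1.84 CPM later, and fell in both comparisons, with log2 fold changes of -6.11 ± 1.06 and -5.64 ± 0.99. CHAF1A, the large subunit of the assembly factor that acts at replication forks, fell in both comparisons, with log2 fold changes of -3.46 ± 0.75 and -3.0 ± 0.75. NASP, which holds soluble H3 and H4, fell in both comparisons, with log2 fold changes of -2.08 ± 0.41 and -2.58 ± 0.49.

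The remaining called genes act on variants or at damaged forks. HJURP, which loads CENPA, stood at 36.4, 164 and 35.2 CPM at 1 month and 2.01 to 5.12 CPM later and fell in both comparisons, with log2 fold changes of -4.56 ± 0.83 and -4.52 ± 0.77. ANP32E, which removes H2A.Z, fell in both comparisons, with log2 fold changes of -1.45 ± 0.27 and -2.11 ± 0.42. It was lower in the library labelled 1-month replicate 2 (96.6 CPM) than in the others of its group (154 and 116 CPM). MMS22L, a partner of new H3 and H4 in fork repair, fell in both comparisons, with log2 fold changes of -1.42 ± 0.27 and -1.83 ± 0.37. The most abundant genes that were not called were RBBP4 and NAP1L1, both histone chaperones, SSRP1, a subunit of the FACT complex, and UPF1, an RNA helicase in histone message decay. RBBP4 stood at 101 to 137 CPM in the older libraries and 156 to 307 CPM at 1 month, with adjusted p-values of 0.2 and 0.276. SSRP1 had log2 fold changes of -0.92 ± 0.51 and -0.83 ± 0.55, NAP1L1 of -0.60 ± 0.29 and -1.27 ± 0.45, and UPF1 of -0.46 ± 0.44 and 0.14 ± 0.52. Without the library labelled 1-month replicate 2, 15 of the 35 regulators fell at 12 months and 8 at 24 months, where 22.2% and 14.2% of all genes fell, and leaving out single older libraries left 0 calls at 12 months (8, 10 and 9 at an unadjusted p under 0.05) and 5, 1 and 0 at 24 months (replicates 1 to 3, with 13, 7 and 7 at an unadjusted p under 0.05).

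The comparison of 24 with 12 months asks for change from the adolescent to the adult goat. No histone gene was called, nor any other gene of the 14080 tested by the edgeR quasi-likelihood test (0.0%). At an unadjusted p under 0.05 there were 20 of 54 replication-dependent and 2 of 18 variant genes, against 11.0% of all genes. By the edgeR exact test and by DESeq2, 21 genes each were called in the whole table (0.149%), none of them a histone gene. Of the 54 replication-dependent genes 52 had a higher fitted level at 24 months, with a median of 1.07, while 52.3% of all genes did, with a median of 0.04. The 54 genes share reads and libraries and are not independent. Within the 24-month group replicate 1 was the lowest library for 58 of the 60 genes tested against 1 month, and replicate 3 was the highest of the 6 older libraries for 53. The lowest 24-month sum, 568 CPM, lay within the range of the 12-month libraries (526 to 855 CPM).

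For the most abundant member of each type the step from 12 to 24 months was 0.98 ± 0.70 (H1.5, LOC106501755), 1.02 ± 0.49 (H2A, LOC102182458), 0.98 ± 0.78 (H2B, LOC102180587), 1.06 ± 0.73 (H3, LOC108633412) and 1.28 ± 0.40 (H4, LOC106503502) on the log2 scale, with adjusted p-values from 0.426 to 0.521. Without 24-month replicate 1, 29 of 57 replication-dependent genes rose and none fell, with a median of 1.45, while 17.9% of all 14375 genes then rose and 14.5% fell. With it left out 2 variant genes (1 up, 1 down) and 12 regulators (5 up, 7 down) were called as well. That library was the lowest of its group for 58 of 60 replication-dependent genes. Leaving it out therefore had to raise their 24-month means, and the fit is no test of a rise. Without 24-month replicate 2 or 3, 0 of 14387 and 0 of 14337 genes in the whole table were called. The S phase genes, of which 0 of 19 were called and 3 had an unadjusted p under 0.05, summed to 260, 298 and 254 CPM at 12 months and 259, 276 and 291 CPM at 24 months. Their sum ranged 1.17-fold over the 6 libraries in which the replication-dependent sum ranged 3.84-fold. Single genes of the list were not all as even as the sum. MKI67 stood at 12.1, 18.2 and 8.58 CPM at 12 months and 4.93, 5.73 and 17.1 CPM at 24 months, and RRM1 ran from 30.0 to 45.9 CPM. The ratio of replication-dependent to S phase counts was 2.03, 2.87 and 2.07 at 12 months and 2.2, 4.63 and 6.95 at 24 months, against 5.21, 10.8 and 5.18 at 1 month. All 6 thymocyte genes tested had a higher fitted level at 24 months (median 0.94, none called), and the list summed to 29.1 CPM in 24-month replicate 3, the highest of the older libraries. In that library whole numbers made up 25.1% of the values above 0, against at most 2.22% in any other. The part of these differences in the histone levels was not tested.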

How the data were processed

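Submandibular glands of 9 goats (3 per age, separate animals) were sequenced after ribosomal RNA depletion with dUTP second strands, per the labels. The authors removed ribosomal reads with Bowtie2 2.2.8, aligned with TopHat2 2.1.1, assembled transcripts with Cufflinks and deposited RSEM expected counts per transcript, neither scaled for depth nor for length. The genome build is not given in the sources used here. The table held 52739 transcripts (10053 new), and 42652 of 42686 known identifiers matched ARS1.2. New transcripts without a symbol (432) held 0.244% to 5.99% of counts and were left out.

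Of 266 transcripts naming histones, 116 named a histone protein. Descriptions with non-histone, demethylation, deubiquitinase or transcription factor were also left out. All transcripts of a member's symbol were summed, including 12 in 7 genes whose own description names no histone. New transcripts without a gene identifier kept their own symbol, so the same product can be listed under different symbols. This holds for macro-H2A.1 (H2AFY and LOC102178535), H2A.V (H2AFV and LOC106502044) and H1.2 (HIST1H1C and LOC106503494). Such entries were counted as separate members, though they may belong to the same gene. CPM used TMM library sizes over all 9 libraries. Rounded counts of the 6 libraries of a comparison were tested with edgeR 4.0.16 (R 4.3.3; filterByExpr, TMM, quasi-likelihood test, Benjamini-Hochberg over all genes tested; called at an adjusted p under 0.05). Fold changes are older over younger, with SE computed from the F statistic. DESeq2 1.42.0 was an alternative, and the functions were tested on simulated data. The floor was 3 counts per library, and intervals of counting error are not given.

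Genes named were the 3 most abundant replication-dependent genes of each type, variants of at least 1 CPM on average, regulators called in both comparisons with 1 month, the 4 most abundant regulators not called, and the 2 most abundant genes of each marker list. Other genes were named after their values were seen: the adjacent replication-dependent pairs. Lists comprised regulators (35), S phase (20), thymocyte (10), thymic epithelium (5), B cell (6), salivary acinar and duct (10), skeletal muscle (5), erythroid (4, 2 of them not found by name) and neutrophil (5) genes. The members and lists were chosen with earlier results of these data known.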

Additional observations from a re-analysis of the deposited data

How the results depend on the processing

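Counts of calls depended most on single libraries. With each library left out in turn, replication-dependent calls ran from 0 to 57 (12 against 1 month), 2 to 49 (24 against 1 month) and 0 to 29 (24 against 12 months), variant calls from 0 to 11, 1 to 8 and 0 to 2, and regulator calls from 0 to 15, 0 to 8 and 0 to 12. The causes were not tested. Each such fit has 1 library fewer. At 12 against 1 month the replication-dependent calls were 54, 57 and 54 without 1-month replicate 1, 2 or 3, and 0 without any 1 of the 12-month libraries. The goats were separate animals, so the replicate numbers were not taken as pairs. Correlations of deviations ran from -0.24 to 0.43 for same-numbered libraries and from -0.43 to 0.36 for the others. Whether same-numbered libraries shared a batch was not tested. With a replicate block, 48 and 45 replication-dependent genes were called against 1 month, 3 variant genes (12 months) and 2 regulators (12 months). Of the 60 replication-dependent genes DESeq2 called 40 at 12 months and 37 at 24 months against 1 month, and gave no adjusted p for 19 and 18. For regulators at 12 months DESeq2 called 12, the edgeR exact test 11, all 9 libraries in one fit 11 and a further fold limit (absolute log2 over 2) 4. At 24 months all 9 libraries in one fit called 15. Library totals in place of TMM, chosen after seeing the data, called 15 and 17 regulators and 12 variant genes (24 months). That scaling moved the median of all genes by -0.46, -0.67 and -0.21 in the 3 comparisons, and 93.8% and 92.4% of all calls against 1 month were then lower, in place of 64.2% and 59.5%. The filter on low counts, known transcripts only and upper-quartile or DESeq2 size factors left each count within 1.5 times.

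The mean summed CPM of variant genes at 12 months, 605, became 572 with library totals, 593 with DESeq2 size factors, 584 with known transcripts only and 575 with described transcripts only (chosen after seeing the data), and at 24 months 531 became 448 with library totals. Replication-dependent sums moved by less than 1 SD under all 4. That limit was wide at 1 month, where the SD (24912 CPM) exceeded the mean (21702 CPM). It was narrow for variant genes at 12 months (SD 9.33 CPM), so the 2 classes cannot be compared by it.

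Of 104 fold changes of named genes, 18 changed sign under some alternative, and 1 of these was called in either fit (H2A.J, LOC108636046, 0.75 at 12 against 1 month without 1-month replicate 2). At 12 against 1 month LOC108636046 was 0.24 and LOC102182848 0.13 with the replicate block, and LOC102190909 was -0.28 with library totals. With single libraries left out LOC108636046 ran from -0.40 to 0.75, LOC102182848 from -1.13 to 1.01, LOC108634231 from -0.90 to 0.22, LOC108633916 from -0.46 to 0.0016, TGAS113E22.1 from -8.50 to 0.13 and UPF1 from -0.71 to 0.082. At 24 against 1 month LOC102190909 was -0.011 with DESeq2 size factors and with DESeq2, -0.042 with the upper quartile, -0.055 with all 9 libraries, -0.086 with known transcripts only and -0.62 with library totals, which also gave -0.12 for LOC108636046 and -0.44 for UPF1. With single libraries left out LOC102182848 ran from -1.17 to 0.65, LOC108634231 from -1.10 to 0.10 and UPF1 from -0.14 to 0.72. At 24 against 12 months the values without 24-month replicate 3 turned negative and were the lowest of ranges from -0.28 to 1.44 (LOC106501755), -0.093 to 1.57 (LOC102180587), -0.15 to 1.14 (LOC102178318), -0.34 to 1.09 (LOC102183280), -0.30 to 1.55 (LOC108633412) and -0.043 to 1.68 (LOC102181641).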
